A study of Mus musculus with 192 samples.

Results

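The mitochondrial ribosomal protein genes were described across a section of the mouse brain. They were chosen by name, as the array rows whose platform annotation gave 1 gene symbol beginning with Mrpl or Mrps and a number. The table held 60 such rows for 50 symbols, and all 60 carried the same symbol in RefSeq. A row was used if every dataset had measured it on 80% or more of its arrays, and rows of one symbol were averaged. This left 57 rows and 47 of the 15606 genes tested. Of the 15606, 8467 carried a gene symbol, and each of the others was an array row without a single symbol. All of them are called genes here, and shares of all genes are over this mix. Of the 47 genes, 34 had an Mrpl and 13 an Mrps symbol. Mrps18a sits in the large subunit despite its name, so 35 were counted as large subunit and 12 as small subunit genes. The 12 include Mrps36, named for the small subunit and since assigned to the oxoglutarate dehydrogenase complex. The row of Mrpl16 was measured on 41.5% of the arrays of dataset 3, that of Mrpl32 on 76.3% of dataset 1 and that of Mrps9 on 78.0% of dataset 1, and these were left out. The row with the lowest measured share that was kept was 1 of the 2 rows of Mrpl50, at 81.4% in dataset 1. A further 4 rows named a family gene together with another gene, Mrps25 with Nr2c2 in 3 of them and Mrps6 in the other, and were not used.

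Mitochondria carry their own ribosome, which translates the few proteins encoded by mitochondrial DNA. All of these are core subunits of the respiratory chain and of ATP synthase. The ribosome has a small subunit, which reads the mRNA, and a large subunit, which joins amino acids. Its RNA comes from mitochondrial DNA, while every one of its proteins is encoded in the nucleus and imported. Many of these proteins have a bacterial counterpart, and others are found in mitochondrial ribosomes alone. Neurons depend on oxidative phosphorylation, and inherited defects of mitochondrial translation often affect the brain.

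The samples were voxels, small cubes of brain from C57BL/6 male mice of postnatal day 56, each hybridised against whole brain RNA on an array of its own. The labels call the voxel RNA pooled, and the number of animals per pool was not given in the sources used here. Positions carry the letter of a grid row (A to G) and the number of a column (1 to 11), and 68 of them were measured on 192 arrays. The arrays came from 3 separate harvests, called datasets 1 to 3, of 59, 68 and 65 arrays, with 56 positions in all 3 datasets and 12 in 2. Voxel RNA carried Cy3 in datasets 1 and 3 and Cy5 in dataset 2. Values are log2 ratios that the authors had centred on the median of each row, so they compare positions with each other and not the section with whole brain. The numerator of the ratio was not stated, and a high value likely stands for more voxel RNA. Errors are SDs over datasets, with n = 3 unless n = 2 is given. The p-values of tests with 1 value per dataset measure the spread between these harvests. Those of the test over positions use the spread between harvests at a position, pooled over positions. That test counts arrays of one dataset as separate samples.

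The typical array lacked 1.5%, 1.86% and 1.11% of its values in datasets 1 to 3, counting values at the floor of the table as unmeasured. The arrays of G8 (41.5%), G3 and G6 of dataset 3 had over 15% such values. Other arrays had a wide spread of values, as the median absolute deviation over rows. It was 1.14 for G9 of dataset 3, where the typical array had 0.497. It was 1.16 for G3 and 1.02 for F4 of dataset 2, where the typical array had 0.357. The part of these arrays in the maps and comparisons below was not tested on its own. The order of the 7 arrays of row D, columns 1 to 7, of dataset 2 was in doubt. Over the 766 genes that differed among positions, they correlated with the mean of the other datasets at -0.0982 on average as labelled and at 0.505 in reversed column order. The labels were kept, and results are given without these arrays where that changed a call. Markers showed distinct brain regions in the section: the striatal gene Ppp1r1b reached 2.84 ± 0.37 at D9 and the choroid plexus gene Ttr 4.10 ± 0.30 at E7.

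Promoters of 4 of the genes are shown because 2 of them, Mrpl57 and Mrps21, were the ones that differed among positions, and 2, Mrpl17 and Mrpl1, were, together with Mrpl38, the genes whose pairs had the highest lowest correlation over the 3 datasets. The sequences are from RefSeq on GRCm38.p6, 300 bases each around the annotated start, on the strand of the gene. They lie at chr14:57825989-57826288 (Mrpl57, plus strand), chr3:95871465-95871764 (Mrps21, minus strand), chr7:105811038-105811337 (Mrpl17, minus strand) and chr5:96209865-96210164 (Mrpl1, plus strand). Capitals mark the letters searched for, on both strands: GCGCANGCG for NRF1, a regulator of nuclear genes for mitochondrial proteins, CCGGAAG for ETS factors such as GABP, and AAGATGGCG for YY1. GGGCGG for SP1 and CCAAT, the CCAAT box, were searched and marked as well. A match on the opposite strand appears as the reverse complement.
Mrpl57: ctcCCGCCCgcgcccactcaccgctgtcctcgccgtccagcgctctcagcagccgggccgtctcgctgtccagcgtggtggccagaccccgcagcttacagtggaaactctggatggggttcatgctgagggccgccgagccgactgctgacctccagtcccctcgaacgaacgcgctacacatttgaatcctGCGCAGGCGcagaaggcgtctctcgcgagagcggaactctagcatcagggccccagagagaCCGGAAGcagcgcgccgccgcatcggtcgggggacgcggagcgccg
Mrps21: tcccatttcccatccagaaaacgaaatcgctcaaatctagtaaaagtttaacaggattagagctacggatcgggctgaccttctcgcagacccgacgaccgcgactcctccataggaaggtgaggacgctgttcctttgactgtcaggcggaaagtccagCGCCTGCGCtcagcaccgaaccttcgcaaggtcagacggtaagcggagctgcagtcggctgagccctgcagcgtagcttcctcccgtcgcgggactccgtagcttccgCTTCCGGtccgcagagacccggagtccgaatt
Mrpl17: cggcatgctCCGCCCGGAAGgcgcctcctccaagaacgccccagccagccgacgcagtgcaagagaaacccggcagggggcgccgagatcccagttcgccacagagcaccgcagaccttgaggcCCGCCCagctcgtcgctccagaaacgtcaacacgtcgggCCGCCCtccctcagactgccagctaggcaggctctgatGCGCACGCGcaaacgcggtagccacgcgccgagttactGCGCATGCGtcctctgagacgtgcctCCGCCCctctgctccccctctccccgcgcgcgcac
Mrpl1: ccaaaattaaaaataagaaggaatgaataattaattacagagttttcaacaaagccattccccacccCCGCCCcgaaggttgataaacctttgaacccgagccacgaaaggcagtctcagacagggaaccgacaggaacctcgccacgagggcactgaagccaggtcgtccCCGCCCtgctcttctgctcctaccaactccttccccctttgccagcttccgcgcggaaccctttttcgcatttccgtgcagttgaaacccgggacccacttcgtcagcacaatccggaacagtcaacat
The NRF1 letters stood at bases 194 to 202 of the Mrpl57 window and, on the opposite strand, at bases 161 to 169 of the Mrps21 window. Both windows also held the ETS letters, at bases 255 to 261 for Mrpl57 and 269 to 275 for Mrps21, just after the start. Mrpl57 had 1 SP1 match. Mrpl17 had 2 NRF1 matches and 4 SP1 matches, the first of the SP1 matches overlapping its ETS match, and Mrpl1 had 2 SP1 matches and none of the other letters. A promoter entry was matched for 41 of the 47 genes. The NRF1 letters occurred in 10 of the 41 (24.4%), against 9.63% of protein-coding promoters and 7.03% of all promoters of this length. The ETS letters occurred in 13 (31.7%), against 12.9% and 9.93%. The YY1 letters occurred in 6 (14.6%), against 2.14% and 1.64%. The SP1 letters, in 19 (46.3%), and CCAAT, in 16 (39.0%), were near their shares in protein-coding promoters, 49.2% and 42.3%. These are matches of letters and not measured sites.

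Few of the genes differed among positions. Mrpl57, a large subunit protein found in mitochondrial ribosomes alone, and Mrps21, the counterpart of bacterial S21 in the small subunit, passed the test over all positions. They are 2 of 47 (4.26%), against 766 of all 15606 genes (4.91%), by the moderated F test of limma (dataset as a block, adjusted p under 0.05). At an unadjusted p under 0.05 there were 7 of 47 (14.9%), against 13.3% of all genes. The median F of the 47 was 1.13, against 1.04 for all genes. The 7 were 4 of the 12 small subunit genes and 3 of the 35 large subunit genes. In these bulk samples a lower value can come from fewer cells of a type or from less RNA per cell, and the 2 cannot be told apart.

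Mrpl57 had the wider range. At E1 it stood at 3.10 in dataset 1 and 2.01 in dataset 2, and it was not measured there in dataset 3. At G8 it read 1.96, 0.04 and 3.72 in datasets 1 to 3. The lowest position was D6, with -4.18 and -0.66 in datasets 1 and 2, followed by B6 with -1.70, -0.81 and -0.69. The dataset 2 array of D6 is among those of row D whose order was in doubt. In reversed order D6 would take the dataset 2 value labelled D2, which was 0.59. The low end at D6, and with it the span of the position means, thus rests mainly on 1 array of dataset 1. E1 and B6 were therefore on the same side of 0 in every dataset that measured them, while G8 was near 0 in dataset 2. The position means spanned 4.97 (F = 2.09, adjusted p = 0.00828). The row was measured on 181 of the 192 arrays. The E1 array of dataset 1 had the most unmeasured values of that dataset (9.58%), and its part in the map of Mrpl57 was not tested. The G8 array of dataset 3 had the most of all, and without it and the other arrays with over 15% unmeasured values the adjusted p was 0.0172. The call was lost without dataset 1 (adjusted p = 0.923), without dataset 3 (0.398) and without the dataset block (0.101).

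Mrps21 had a narrower and steadier map. At C4 it stood at 0.84, 0.83 and 0.68 in datasets 1 to 3, and at the neighbouring C3 at 0.29, 0.76 and 0.36. At E5 it read -0.45, -0.74 and -0.91. C4 was above 0 and E5 below 0 in all 3 datasets, with SDs over datasets of 0.09 and 0.23. Other ends of its map rested on 1 array: C8 read 0.18, 1.64 and -0.15, and F4 read -0.03, -1.39 and -0.31. The position means spanned 1.48 (F = 1.90, adjusted p = 0.0253). The call was lost without row D, columns 1 to 7, of dataset 2 (adjusted p = 0.0521), without datasets 1, 2 and 3 in turn (0.608, 0.276 and 0.326) and without the dataset block (0.223).

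**Figure D1:**
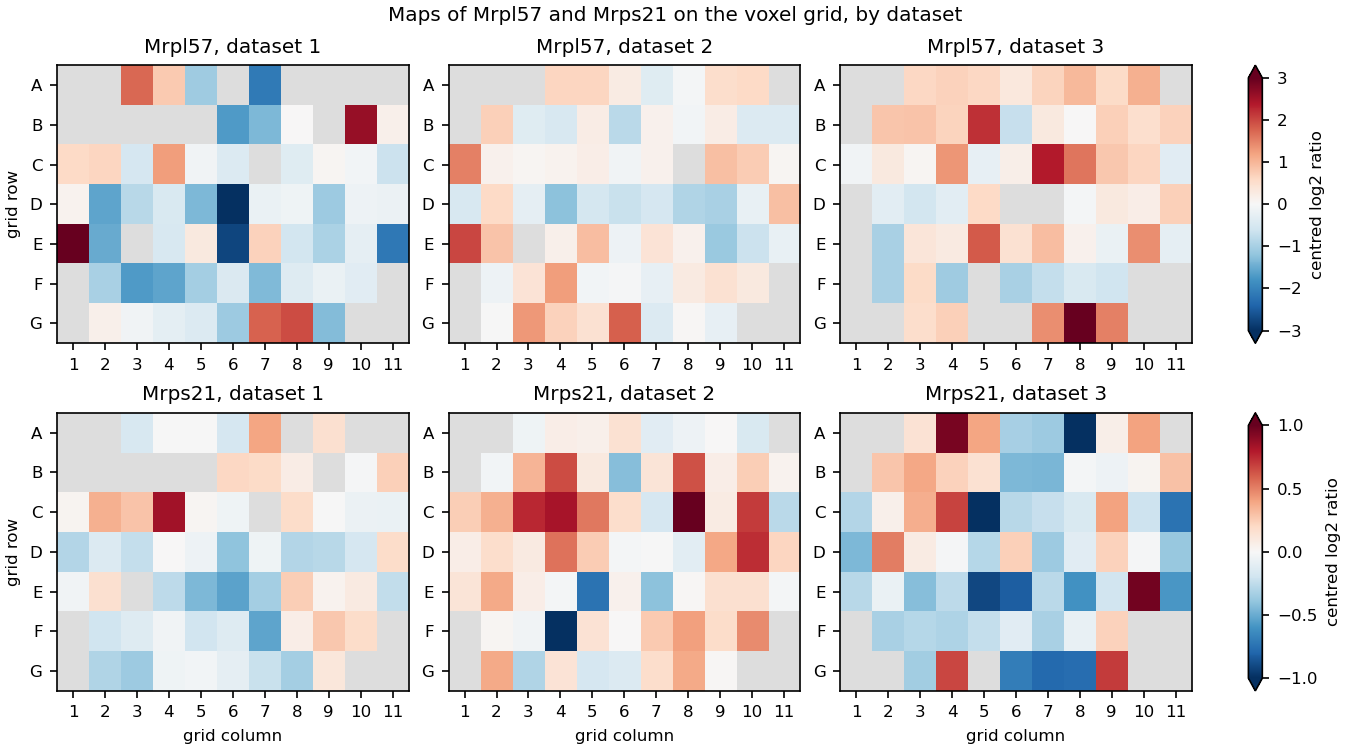
Centred log2 ratio of Mrpl57 (top) and Mrps21 (bottom) at each grid row (vertical axis) and column (horizontal axis) in datasets 1, 2 and 3; grey squares are not on the grid or not measured, and colours saturate at 3 for Mrpl57 and 1 for Mrps21. Mrpl57 is high at E1 in both datasets that measured it, and Mrps21 is high at C4 and low at E5 in all 3.

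The next 10 genes by p did not pass. Among those of the small subunit, Mrps25, found in mitochondrial ribosomes alone, had its highest value at D11 (1.55, -0.02 and 1.53 in datasets 1 to 3) and an adjusted p of 0.135. Mrps15, whose bacterial counterpart binds the small subunit RNA early in assembly, was highest at B5 (0.54 ± 0.16, n = 2) and lowest at F4 (-1.36, -0.96 and -0.24), with an adjusted p of 0.291. At F4 the 3 datasets of Mrps15 had the same sign. The F4 arrays of datasets 1 and 2 had a wide spread, 0.86 and 1.02, where the typical arrays had 0.464 and 0.357. The part of this in the low values was not tested. Mrps10 shared both ends of its map with Mrps21, with 0.73, 0.53 and 0.17 at C4 and -0.14, -1.72 and -0.51 at E5 (adjusted p = 0.335). Mrps11, a protein of the platform of the small subunit, was lowest at E1 (-0.89 ± 0.93) and Mrps18b, 1 of the forms related to bacterial S18, at E2 (-0.99 ± 1.07). Their adjusted p values were 0.456 and 0.501.

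In the large subunit, Mrpl24, whose bacterial counterpart starts assembly of the subunit, was lowest at G9 (-1.07, -0.05 and -2.25) and highest at C8 (0.39 ± 0.15), with an adjusted p of 0.189. Mrpl19 read 0.06, 0.05 and 2.80 at its highest position, A3, so that end rests on 1 array of dataset 3, and its adjusted p was 0.334. The highest position of Mrpl13, B11, rests on 1 array of dataset 1, with 3.17, -0.05 and -0.16. Mrpl28 read -0.14, 0.63 and -5.18 at G9, and was nearly as low on average at A10, with -1.34 and -1.76 in datasets 2 and 3. The dataset 3 values of Mrpl24 and Mrpl28 at G9 come from the array of wide spread named above. Mrpl35 read 0.19, 1.74 and 0.45 at A7 and -0.57, -2.53 and -0.10 at B8. The adjusted p values of Mrpl13, Mrpl28 and Mrpl35 were 0.503, 0.553 and 0.456. With quantile normalization Mrps15 passed (adjusted p = 0.0459). With array weights, under which 2529 of all genes passed against 766, Mrps15 (0.00113) and Mrpl19 (0.000296) were among 8 genes of the family that passed.

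For 10 of the 47 genes the array held 2 rows, both annotated to that gene. Over the arrays of a dataset the 2 rows of one gene correlated at a median of 0.0936, 0.121 and 0.0804 in datasets 1 to 3. For 2905 genes with several rows the medians were 0.0422, 0.128 and 0.0639. For 52 cytosolic ribosomal protein genes they were 0.419, 0.681 and 0.478, and for 24 oxidative phosphorylation genes 0.394, 0.521 and 0.427. Rows of one gene share the array, so these are descriptions. The rows of Mrps7, a protein of the head of the small subunit, followed each other best in dataset 2 (0.206, 0.600 and 0.139). Those of Mrpl23, at the exit of the peptide tunnel, read 0.281, 0.0461 and 0.358, and those of Mrps10 0.202, 0.431 and -0.116.

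The 2 rows of Mrps25 went apart, with r of -0.150, -0.324 and 0.165. Tested on its own by the F test over positions, 1 of them passed (adjusted p = 0.00894) and the other did not (0.905). The average of Mrps25 joins these 2 rows, and whether their maps differ was not tested. The rows of Mrps17 read 0.0713, 0.145 and -0.534, and those of Mrps18b 0.071, 0.00721 and -0.0888. For Mrpl3, near the site of peptide bond formation, they read -0.162, 0.160 and 0.180. For Mrpl48, Mrpl50 and Mrpl19 the medians over datasets were 0.204, 0.0966 and 0.0706. The values of these 10 genes are averages over such rows, and the other 37 rest on 1 row each.

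Maps of one gene in different datasets agreed weakly. Over the positions shared by a pair of datasets (59 for 1 and 2, 56 for 1 and 3, 65 for 2 and 3) the median Spearman rho of the 47 genes was 0.127, 0.0519 and 0.0521. Over all genes it was 0.0680, 0.0313 and 0.0105. The median of the 3 pairs was above 0.2 only for Mrps21 (0.288, 0.301 and 0.272), Mrpl57 (0.208, 0.465 and 0.102) and Mrpl13 (0.127, 0.202 and 0.260). The lowest medians belonged to Mrpl45, a protein of the large subunit that faces the inner membrane (-0.0745, -0.222 and -0.156), Mrpl58, a release enzyme that frees stalled peptides (-0.127, 0.0812 and -0.154), and Mrpl1, of the stalk over which spent tRNA leaves (0.240, -0.303 and -0.0708). The Spearman correlation was above 0 in all 3 pairs for 15 of 47 genes (31.9%), against 24.9% of all genes. The points share dataset, array and centring, and no test was made.

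**Figure D2:**
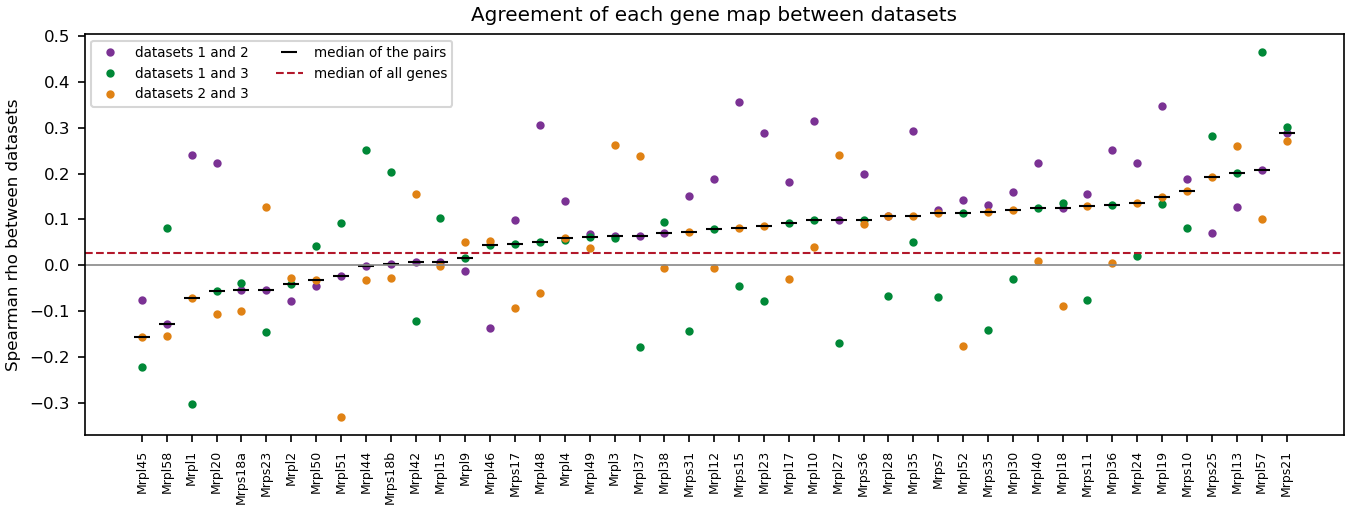
Spearman rho of each gene map between 2 datasets (vertical axis) for the 47 genes (horizontal axis, in order of their median), with 1 coloured point for each pair of datasets, a black bar for the median and a dashed line for the median of all genes, 0.0272. Most points lie between -0.2 and 0.3, and Mrps21 is the gene with 3 close positive values at the right end.

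Zones of the grid were then compared, to ask whether the genes differ between ends, bands, sides or the rim of the section. One value was taken per dataset, the difference of the zone means, and tested against 0 with limma, with p adjusted over all 15606 genes. None of the 47 genes passed in any of the 5 comparisons by this test. The percentages of all genes that passed are given with each comparison. A second fit used all arrays at once, with the dataset as a block, and treats arrays of one dataset as separate samples.

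In rows A-B against rows F-G, 0 of 47 genes passed (0.109% of all genes) and 5 had an unadjusted p under 0.05 (9.02% of all genes). Mrpl13 was 0.55, 0.13 and 0.57 higher in rows A-B in datasets 1 to 3 (mean 0.41 ± 0.25, adjusted p = 0.471 by limma). Its means were 0.62, -0.06 and -0.02 in rows A-B, against 0.07, -0.19 and -0.58 in rows F-G. Mrps15 differed by 0.26, 0.52 and 0.12 (adjusted p = 0.562) and Mrpl38, of the central protuberance of the large subunit, by 0.28, 0.09 and 0.33 (0.604). On the other side, Mrpl50 differed by -0.19, -0.36 and -0.63 (0.472), Mrps23 by -0.11, -0.45 and -0.78 (0.492) and Mrpl28 by -0.21, -0.42 and -0.28 (0.519). Mrpl12, the stalk protein that also binds mitochondrial RNA polymerase, had the lowest mean difference (-0.60 ± 0.63), with -0.72, 0.08 and -1.15. Each gene named here other than Mrpl12 had 1 sign in all 3 datasets, as 16 of the 47 did (34.0%), against 32.4% of all genes.

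In the fit over all arrays, 8 of the 47 genes passed for these rows, against 12.6% of all genes. Higher in rows A-B were Mrpl13, Mrpl23, Mrps15 and Mrps31 (5.18% of all genes were called higher), by 0.20 to 0.34. Lower were Mrpl12, Mrpl28, Mrps23 and Mrps25 (7.45% called lower), by -0.51, -0.37, -0.49 and -0.22. The smallest adjusted p was that of Mrps15 (0.000177, difference 0.34 ± 0.07 SE). Arrays of rows A-B had more unmeasured values than those of rows F-G in every dataset, at medians of 2.21%, 2.46% and 1.42% against 1.17%, 1.18% and 0.910%, and the part of this in these differences was not tested.

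For the middle band, rows C-E against rows A-B and F-G, 0 of 47 genes passed (0.00641% of all genes) and 1 had an unadjusted p under 0.05 (6.73%). It was Mrpl9, higher in rows C-E by 0.20, 0.15 and 0.17 (0.17 ± 0.03, adjusted p = 0.731 by limma). Mrpl46 differed by 0.15, 0.04 and 0.39 and Mrpl42 by 0.03, 0.10 and 0.36. Mrps18b (-0.39, 0.08 and -0.37), Mrps10 (-0.06, -0.07 and -0.41) and Mrpl57 (-0.14, -0.14 and -0.12) had the smallest p below 0, with adjusted p of 0.760 to 0.779. In the fit over all arrays 3 passed, against 4.88% of all genes: Mrpl9 and Mrpl24 were higher in rows C-E (3.56% called higher) and Mrps10 lower (1.32% called lower).

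In the middle columns 5-7 against columns 1-3 and 9-11, 0 of 47 genes passed (0% of all genes) and 7 had an unadjusted p under 0.05, against 13.2% of all genes. Mrpl48 was higher in the middle by 0.19, 0.16 and 0.25 (0.20 ± 0.04, adjusted p = 0.316 by limma), Mrpl10, at the base of the stalk, by 0.12, 0.24 and 0.19, and Mrpl27, near the site of peptide bond formation, by 0.24, 0.14 and 0.14. Below 0 were Mrpl36 (-0.15, -0.21 and -0.19), Mrps21 (-0.11, -0.18 and -0.38) and Mrpl3 (-0.28, -0.13 and -0.14). These genes had adjusted p of 0.316 to 0.366, and each had 1 sign in all 3 datasets. In the fit over all arrays 3 passed, against 8.13% of all genes: Mrpl10 and Mrpl27 were higher (4.54% called higher) and Mrps21 lower (3.59% called lower), by 0.19, 0.18 and -0.22.

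Between the sides, columns 1-5 against columns 7-11 in mirror pairs, 0 of 47 genes passed by either fit (0% of all genes in both) and 0 had an unadjusted p under 0.05 (3.34% of all genes). The smallest p above 0 belonged to Mrpl24 (0.09 ± 0.02), Mrpl18 and Mrps36. Those below 0 were Mrpl36 (-0.34, -0.04 and -0.11), Mrpl58 (-0.12, -0.18 and -0.05) and Mrps15 (-0.16, -0.10 and -0.04). All 6 had an adjusted p of 0.958.

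For the perimeter of the grid against its interior, 0 of 47 genes passed (0.109% of all genes) and 2 had an unadjusted p under 0.05 (13.4%). Mrpl57 came nearest in all of these comparisons, with perimeter means of -0.02, 0.40 and 0.70 in datasets 1 to 3, against interior means of -0.61, -0.04 and 0.32. The difference was 0.60, 0.44 and 0.38 (0.47 ± 0.11, interval 0.28 to 0.66 at 95% confidence, unadjusted p = 0.000549, adjusted p = 0.128 by limma). The perimeter was higher in all 3 datasets, while its level moved with the dataset. Single arrays entered these means with extreme values. On the perimeter, E1 of dataset 1 read 3.10 (9.58% of its values unmeasured) and G8 of dataset 3 read 3.72 (41.5%). In the interior, D6 of dataset 1 read -4.18. Others went the other way, such as E11 (-2.15, perimeter) and B10 (2.62, interior) of dataset 1. Their part in the difference and its interval was not tested. Mrps18b differed by 0.35, 0.04 and 0.53 (adjusted p = 0.299), and Mrpl19 by 0.23, 0.07 and 0.08 (0.526). Below 0 were Mrps36 (-0.21, -0.04 and -0.37), Mrpl12 (-0.14, -0.08 and -0.37) and Mrpl48 (-0.09, -0.16 and -0.26).

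In the fit over all arrays 6 genes passed for the perimeter, against 13.4% of all genes: Mrpl57, Mrps18b and Mrpl17 were higher (5.16% called higher), by 0.49, 0.30 and 0.14. Mrpl24, Mrps23 and Mrpl51 were lower (8.21% called lower), by -0.22, -0.32 and -0.20. In dataset 3 these 3 differed by -0.47, -0.78 and -0.51. Mrps23 and Mrpl51 differed the other way in dataset 1 (0.20 and 0.11), as did Mrpl17 (-0.10 in dataset 1, 0.20 and 0.28 in datasets 2 and 3). The median share of unmeasured values was 1.27%, 2.46% and 1.82% on perimeter arrays, against 1.80%, 1.75% and 0.771% on interior arrays, so it was higher on the perimeter in datasets 2 and 3, and its part was not tested. For a typical gene of the 47 the 95% interval of the perimeter difference reached 0.19 to either side of its mean, and that of rows A-B against rows F-G 0.31.

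**Figure D3:**
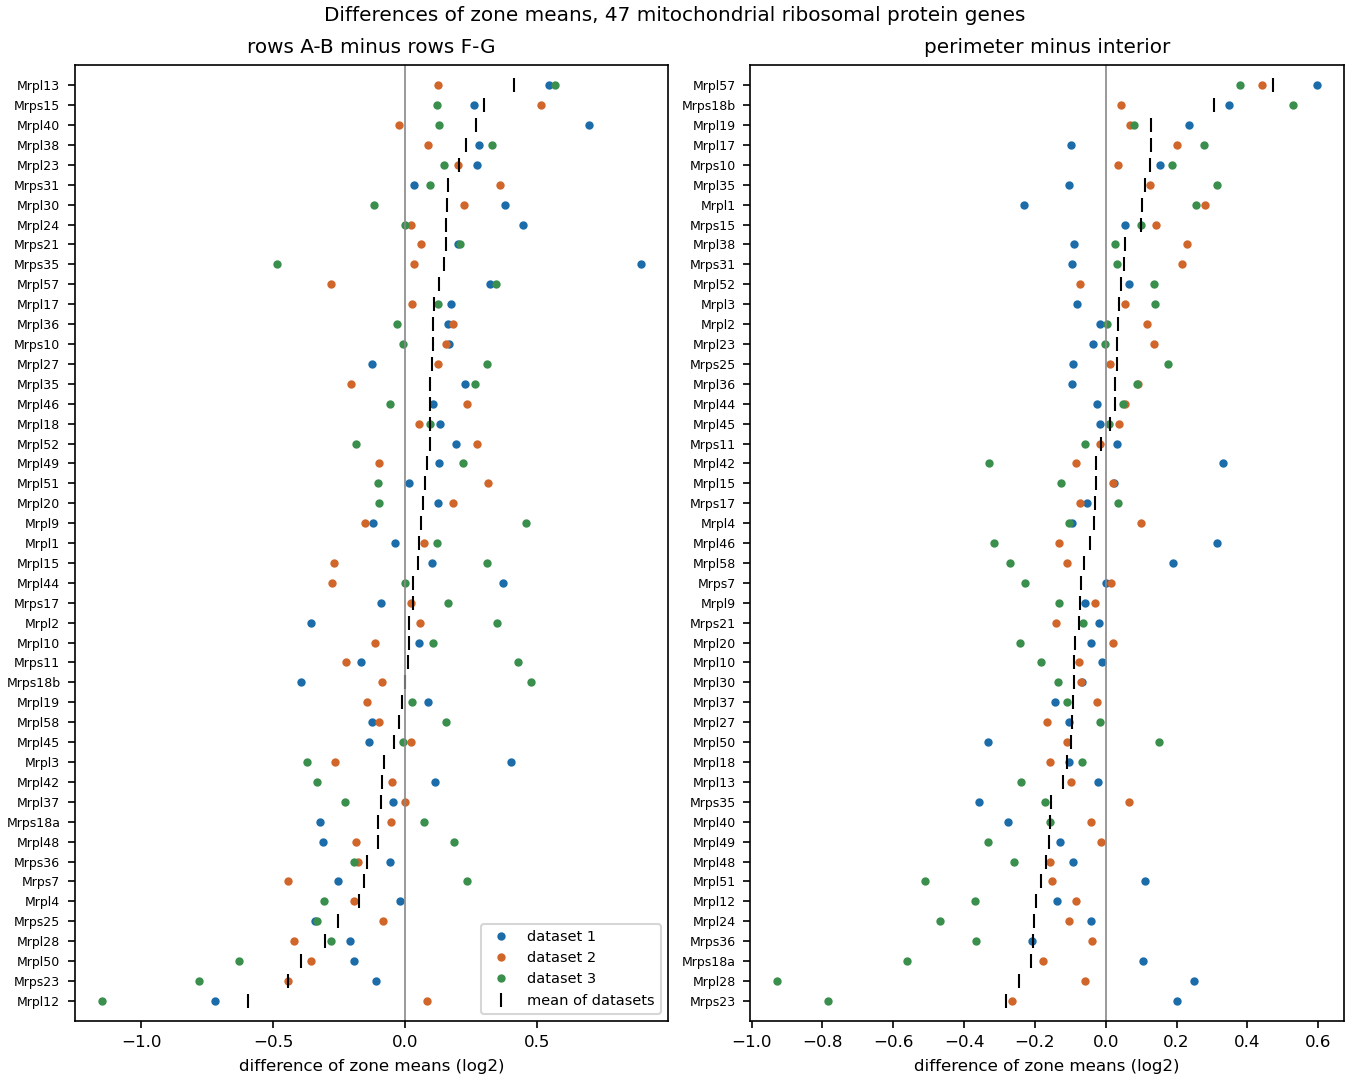
Difference of zone means on the log2 scale (horizontal axis) for each of the 47 genes (vertical axis, in order of the mean), rows A-B minus rows F-G on the left and perimeter minus interior on the right, with coloured points for datasets 1 to 3 and a black bar for their mean. Points of one gene often lie on both sides of 0, and Mrpl57 is highest for the perimeter with 0.60, 0.44 and 0.38.

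Averaged over the 47 genes, the map was nearly flat. The mean map spanned 0.41 from its highest to its lowest position, with an SD of 0.08 over positions. Its highest position was C8 (0.11, 0.24 and 0.08 in datasets 1 to 3) and its lowest A10 (-0.23 and -0.31 in datasets 2 and 3) and E5 (-0.12, -0.40 and -0.25). Both low positions were below 0 in each dataset that measured them. The A10 array of dataset 2 had a wide spread (0.78, typical array 0.357) and 4.36% unmeasured values (typical array 1.86%). The E5 array of dataset 3 had 5.22% unmeasured values (typical array 1.11%). The part of these arrays in the low means was not tested. E5 and A10 were chosen by this mean, so the counts below 0 there only describe them. At E5 29, 35 and 32 of the 47 genes were below 0 in datasets 1 to 3 (61.7%, 74.5% and 68.1%, against 48.6%, 46.5% and 51.2% of all genes). At A10 32 of 46 and 29 of 47 genes were below 0 in datasets 2 and 3 (69.6% and 61.7%, against 48.0% and 44.5%). E5 was the lowest position for 6 genes, Mrps10, Mrps21, Mrpl20, Mrpl23, Mrpl30 and Mrpl46 (12.8%, against 2.61% of all genes), and A10 for 5 (10.6%, against 5.23%). Other positions also stood above their share of all genes. E1 and G9 were the lowest for 4 genes each (8.51%, against 2.63% and 1.94%). B2, B11 and G2 were the lowest for 3 each (6.38%, against 0.923%, 3.48% and 2.97%).

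Of the other lists, some were lowest at the same positions and some elsewhere. The mean of 63 oxidative phosphorylation genes was lowest at A10 (-0.45 ± 0.002, n = 2) and highest at C8 (0.48 ± 0.30), and that of 70 cytosolic ribosomal protein genes was lowest at A10 (-0.39 ± 0.02, n = 2). The mean of the 8 genes of complex III was lowest at E5 (-0.38 ± 0.11). The lists nearest in function were lowest elsewhere: mitochondrial translation factors at G4, aminoacyl-tRNA synthetases at A4, ribosome assembly and rRNA modification at E3, and transcription and RNA processing at E11. The SD over positions was 0.16 for the oxidative phosphorylation map and 0.20 for the cytosolic ribosomal map, against 0.08 for the mitochondrial ribosomal genes. For the lists nearest in function it was 0.076 to 0.096, and for the mean over all genes 0.041. The SD of a mean map also depends on how many genes are averaged. The lists nearest in function hold 11 to 17 genes, so these SDs are not on one footing. By subunit, the mean of the 12 small subunit genes was lowest at E5 (-0.48 ± 0.22, or -0.45 ± 0.22 without Mrps36), and that of the 35 large subunit genes at A10 (-0.30 ± 0.001, n = 2) and highest at C8 (0.15 ± 0.06). Zone differences of the mean map were small: 0.01 ± 0.04 for rows A-B against rows F-G, 0.02 ± 0.04 for rows C-E, 0.002 ± 0.04 for columns 5-7, -0.02 ± 0.004 for the sides and -0.03 ± 0.05 for the perimeter. The mean of the cytosolic ribosomal protein genes was 0.25 ± 0.07 higher in rows A-B than in rows F-G.

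**Figure D4:**
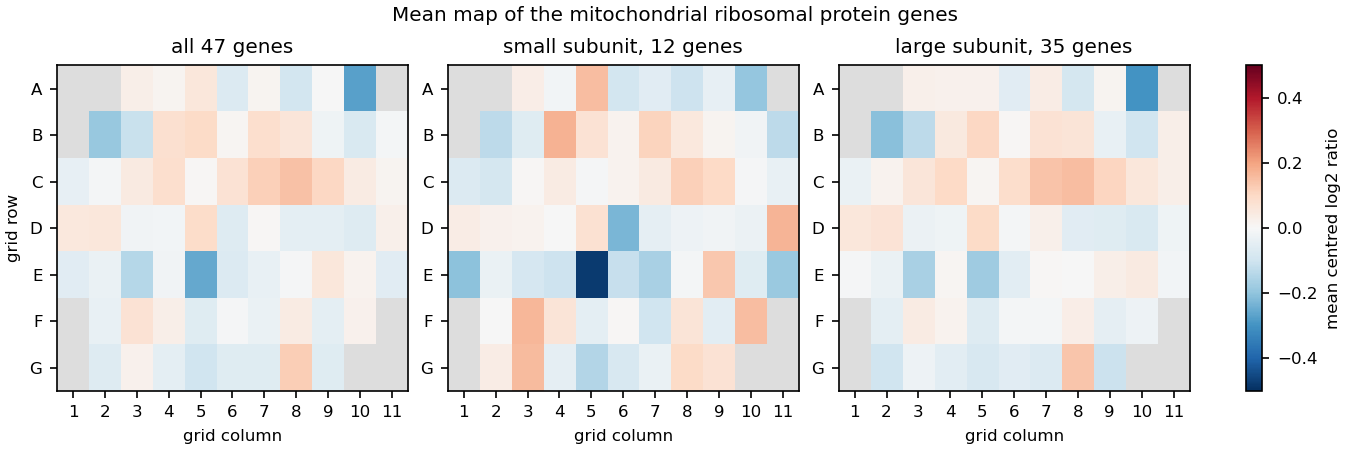
Mean centred log2 ratio over datasets and genes at each grid row (vertical axis) and column (horizontal axis) for all 47 genes, the 12 small subunit genes and the 35 large subunit genes; grey squares are not on the grid. The lowest value is -0.27 in the map of all 47 genes (A10) and -0.30 in that of the large subunit (A10), and E5 stands at -0.48 in that of the small subunit.

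Genes of the family followed each other little over the section. The correlation of a pair over the positions of a dataset had a median of 0.00914, 0.0890 and 0.0176 over the 1081 pairs in datasets 1 to 3. For 400 genes drawn from the table it was 0.000318, 0.00599 and 0.000986. For the cytosolic ribosomal protein genes it was 0.50, 0.656 and 0.491, and for the oxidative phosphorylation genes 0.163, 0.372 and 0.279. A correlation over 0.3 was found for 8.88%, 19.9% and 12.9% of the mitochondrial ribosomal pairs, against 78.9%, 86.7% and 77.8% of the cytosolic ribosomal pairs and 7.85%, 14.7% and 9.94% of the pairs of drawn genes. The family was thus somewhat above the drawn genes in each dataset and far below the cytosolic ribosomal genes. Within the small subunit the medians were 0.0528, 0.0790 and -0.0186, and within the large subunit -0.00675, 0.0847 and 0.0202. The points share array, harvest and dye, and the values are descriptions.

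**Figure D5:**
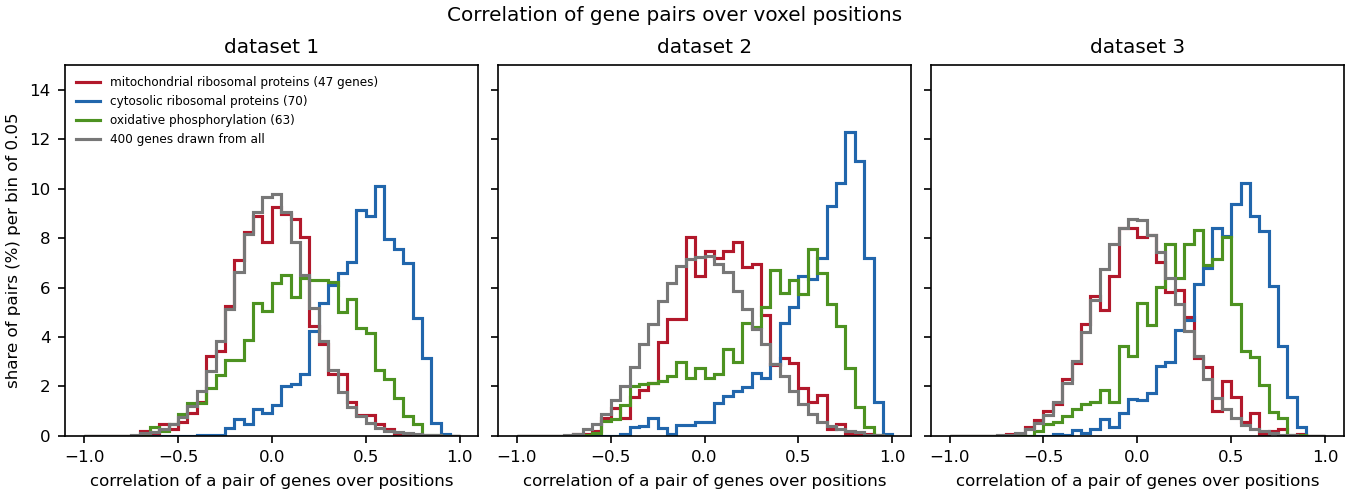
Share of gene pairs (vertical axis, percent per bin of 0.05) by their correlation over positions (horizontal axis) in datasets 1, 2 and 3, for 47 mitochondrial ribosomal protein genes, 70 cytosolic ribosomal protein genes, 63 oxidative phosphorylation genes and 400 genes drawn from the table. The mitochondrial ribosomal pairs centre near 0, with medians of 0.00914, 0.0890 and 0.0176, close to the drawn genes, and the cytosolic ribosomal pairs near 0.5 or above.

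Of the 1081 pairs, 16 had a correlation over 0.3 in all 3 datasets (1.48%, against 1.38% of the pairs of drawn genes) and 5 under -0.3 (0.463%, against 0.871%). These shares are near or below those of the drawn genes, so the pairs named here, picked as the extremes, are a description. The closest, by the lowest of the 3 values, were 3 large subunit genes: Mrpl17 with Mrpl38 (0.685, 0.756 and 0.643), Mrpl1 with Mrpl17 (0.513, 0.847 and 0.758) and Mrpl1 with Mrpl38 (0.608, 0.639 and 0.531). Between harvests the values were near 0: the map of one gene in 1 dataset and of the other in another correlated at a median of 0.0693, -0.0235 and -0.0282 for these pairs. Their correlation with the mean over all genes was 0.005 to 0.02 in dataset 1, but 0.580, 0.594 and 0.429 in dataset 2 and 0.385, 0.361 and 0.429 in dataset 3 for Mrpl17, Mrpl1 and Mrpl38. Mrps15 followed Mrpl23 (0.515, 0.441 and 0.606) and Mrps31 (0.437, 0.498 and 0.491), which like Mrps15 were higher in rows A-B in the fit over all arrays. Between datasets the medians for these pairs were lower, 0.019 with Mrpl23 and 0.109 with Mrps31. Opposed were Mrpl48 and Mrps15 (-0.546, -0.504 and -0.471), Mrpl23 and Mrpl48 (-0.460, -0.542 and -0.662) and Mrpl17 and Mrps18a (-0.453, -0.442 and -0.428).

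The mean map of the other genes of the family was followed best by Mrpl46 (0.0493, 0.495 and 0.464), Mrpl49 (-0.111, 0.594 and 0.411) and Mrpl9 (0.384, 0.370 and 0.283), and of these Mrpl46 and Mrpl9 were above 0 in all 3 datasets. Mrpl45 (-0.247, -0.215 and -0.238), Mrpl17 (-0.307, -0.0331 and -0.211) and Mrpl52 (-0.142, 0.0143 and -0.353) followed it least. The mean maps of the mitochondrial ribosomal and oxidative phosphorylation genes correlated at 0.547, 0.655 and 0.612 within datasets, and at a median of 0.177 between datasets. With the mean map of the cytosolic ribosomal genes the values were 0.260, 0.554 and 0.585, and 0.156 between datasets.

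Mrps21 followed the oxidative phosphorylation map (0.427, 0.637 and 0.256) and that of 3 measured striatal markers out of 11 (0.240, 0.368 and 0.342), all 3 of which differed among positions. It ran against the mean over all genes (-0.110, -0.468 and -0.258). Nearer 0 were its correlations with the 4 measured of 12 oligodendrocyte and myelin markers (0.111, 0.191 and 0.0603) and the 4 measured of 8 cortical markers (-0.012, -0.0949 and -0.0113). Mrpl57 correlated with the oxidative phosphorylation map at -0.0731, -0.342 and -0.185 and followed the mean over all genes (0.227, 0.463 and 0.456). With the 5 measured of 6 meninges markers it correlated at -0.0916, 0.332 and 0.399. Levels of the markers relative to each other are not known on centred rows, and their part in the maps of Mrps21 and Mrpl57 was not tested.

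Other genes of mitochondrial translation and gene expression had no call. For translation factors 11 genes were measured for 18 names listed, and for aminoacyl-tRNA synthetases 16 for 26 names. The synthetase list also holds Gatb and Gatc. For ribosome assembly and rRNA modification 14 were measured for 28 names, and for mitochondrial transcription and RNA processing 17 for 23. Some genes were listed under several names. Of the measured genes 0 differed among positions by limma's F test, against 4.91% of all genes. At an unadjusted p under 0.05 there were 1, 0, 0 and 2 in these lists. The complexes of oxidative phosphorylation had some: 4 of 25 genes of complex I passed (16.0%) and 0 of 4 of complex II. In complexes III, IV and V 1 of 8, 2 of 10 and 2 of 16 genes passed. They included Ndufv2, highest at C8 (0.74 ± 0.61), Cox4i1, also highest at C8 (0.87 ± 0.92), and Uqcrh, lowest at E5 (-0.94 ± 0.60), with adjusted p of 0.00802, 0.00569 and 0.00811. Of the 70 cytosolic ribosomal protein genes 29 passed (41.4%), led by Rps6, highest at B5 (0.71 ± 0.11, n = 2). The residual SD of a typical gene was 0.41 among the mitochondrial ribosomal genes, 0.31 among the cytosolic ones and 0.47 over all genes.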

How the data were processed

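The authors deposited 1 table of log2 ratios of 20847 rows and 192 arrays, with rows centred on their own median. Which scanner, background correction and normalization were used is not given in the sources used here. Per the labels' protocols, Trizol RNA was reverse transcribed and coupled to dyes. Values at the floor (-6.64, 0.492% of measured values) counted as unmeasured. Arrays were then centred by the median of the 7961 rows that all arrays measured (largest shift 0.353), 20 control rows were left out and rows of one symbol were averaged. Precision is limited by the number of arrays.

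Positions were tested with the moderated F test of limma 3.58.1 in R 4.3.3, with the dataset as a block, and zones with limma on 1 difference per dataset, with Benjamini-Hochberg adjustment over 15606 genes. The scripts were tested on simulated data. Maps were described with Python 3.11.15. The dataset number names a harvest and pairs the arrays: deviations from position means correlated at a median of 0.237 within a dataset and -0.124 between datasets over 7556 genes. Deviations at a position sum to 0 over datasets, so the value between datasets is pulled below 0 by construction. No 2 arrays correlated above 0.837, and none was treated as a copy.

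The members and all lists were chosen with earlier results of these data known. Named were the 12 members with the smallest p over positions, the 3 with the smallest p in each direction per zone comparison, those with the highest and lowest agreement or likeness to the mean map, and those with several rows. Members called in the fit over all arrays, the closest pairs and the genes lowest at E5 were named after their values were seen.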

Additional observations from a re-analysis of the deposited data

How the results depend on the processing

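The count of mitochondrial ribosomal genes that differed among positions, 2, was 3 with quantile normalization, 3 of 57 with each row tested on its own, 8 with array weights, 1 of 23 over rows measured on every array, where Mrpl57 is not among the genes tested, and 1 without row D, columns 1 to 7, of dataset 2. It was 0 to 1 with 1 dataset left out. The dataset number pairs the arrays as a block, and with no replicate block the count was 0, against 366 of all genes. Over all genes, 766 became 1160 with quantile normalization, 2529 with array weights and 214 to 529 with 1 dataset left out. Leaving out arrays with over 15% unmeasured values, chosen after seeing the data, kept both calls.

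In zones, where 0 genes of the family passed with 1 value per dataset, the fit over all arrays called 8 for rows A-B against rows F-G with the replicate block and 7 with no replicate block. For rows C-E it called 3 and 2, for columns 5-7 also 3 and 2, and for the perimeter 6 and 3. With 1 dataset left out the zone counts stayed at 0.

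The mean difference between the sides, -0.0177, was -0.00692 without centring, -0.00481 with quantile normalization, -0.0232 with floor values kept, -0.0292 without the row D arrays, -0.0115 as a median over genes or with genes scaled to equal SD, and -0.0209 to -0.0137 with 1 dataset left out. For the small subunit, rows A-B against rows F-G, at -0.00737, became 0.0142 with quantile normalization, 0.0348 as a median and 0.0157 with equal SD, and its perimeter difference of -0.0175 became 0.0172 as a median. Without Mrps36, left out after seeing the data, these were 0.00545 and -0.00139. The cause of these moves was not tested. The difference between the sides kept its sign in each of these settings, and those of the small subunit did not. With 1 dataset left out the mean map differed by -0.00980 to 0.0365 for rows A-B, -0.00441 to 0.0389 for rows C-E, -0.0256 to 0.0179 for columns 5-7 and -0.0524 to -0.00383 for the perimeter. Of 179 comparisons of these results with an alternative, 31 moved and 148 did not. Each position has at most 3 arrays, which limits what a single map can show.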
